A study of Mus musculus with 24 samples.

Results

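Transcript levels of a group of genes for hepatic xenobiotic metabolism were followed in liver, in wild-type and in PPARα-null mice that received the PPARα agonist WY-14,643 (WY), heat shock (HS) or both. The group was chosen by name: *Cyp1a2*, *Cyp2b9*, *Cyp2b10*, *Cyp2c29*, *Cyp2e1*, *Cyp2f2*, *Cyp2j5*, *Cyp3a11*, *Cyp3a13* and *Por*, which makes 10 genes, with every Affymetrix U74Av2 probe set annotated to them. Of these, 9 had a probe set of their own among the 8251 genes and 12422 probe sets with values, *Cyp3a11* also shared 1 probe set with *Cyp3a16*, and *Por* had no probe set annotated to it and was not measured here. The study asked whether the response of the liver to HS depends on PPARα. The mice were males, 9 to 12 weeks old, of mixed SV129/C57BL/6 background. They ate NIH-07 chow with or without 500 ppm WY for 1 week. They were then held for 40 min at 42°C (HS, with a chamber near 43°C by the labels) or at room temperature. This gave 8 groups, control, HS, WY and WY+HS in each genotype, with 3 mice and 3 arrays per group and 24 arrays in all, each from the whole liver of 1 mouse. The PPARα-null mice lacked the receptor in the whole body, in the control group as well as in the treated groups. Livers were taken 4 h after HS, and the labels list later times as well without tying them to arrays.

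Cytochrome P450 enzymes of families CYP1, CYP2 and CYP3 sit in the endoplasmic reticulum of hepatocytes, where they add oxygen to drugs, toxicants, steroids and fatty acids, and NADPH-cytochrome P450 reductase, the product of *Por*, hands them the electrons. Ligand-activated regulators set their levels: the aryl hydrocarbon receptor for CYP1A, the constitutive androstane receptor (CAR, *Nr1i3*) for CYP2B and CYP2C, and the pregnane X receptor (PXR, *Nr1i2*) for CYP3A. Many of them, such as *Cyp1a2*, *Cyp2c29* and *Cyp2e1*, are made mainly by hepatocytes near the central vein, whereas *Cyp2f2* is made mainly near the portal vein.

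Levels are given as normalized intensity, the deposited probe set intensity after quantile normalization over the 24 arrays, with every value under 15.7, the size of the 10th percentile, raised to that floor. Changes are differences in mean log2 intensity with their SE, and a gene is said to rise or fall only where limma gave a Benjamini-Hochberg adjusted p under 0.05 over all 12422 probe sets. These p-values measure the spread between mice that the labels list as separate, 3 per group. *Ppara* itself ranged from 180.8 to 357 in wild-type mice and from 103 to 210.2 in PPARα-null mice, with wild-type HS mouse 5 the only wild-type mouse under 274. The null control mice, at 152 to 185, lay below the wild-type control mice, at 298 to 357. They differed by -0.92 (SE 0.22, adjusted p = 0.0594). Whether this probe set lies in the deleted exon was not checked. Deposited array medians ranged from 15.2 to 40.5. None of the 10 measured hepatocyte markers lay at the floor throughout. The same was true of the 9 skeletal muscle markers, so this did not test the tissue label. The summed intensity of the hepatocyte markers was 45010 to 45459 in wild-type control mice, 39064 to 40434 with WY and 39680 to 41203 with WY+HS. Of the 20 measured PPARα target genes, 18 rose with WY in wild-type mice, where 5.59% of all probe sets were higher. With WY in PPARα-null mice 0 of them changed, where 0.00805% of all probe sets passed. In whole liver, fewer cells of a type and less RNA per cell cannot be told apart.

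The start regions of 5 genes are shown because the results turn on them: *Cyp1a2*, *Cyp2b10* and *Cyp2c29*, which fell with WY, *Cyp2b9*, the close relative of *Cyp2b10* that stayed near the floor, and *Cyp2e1*. Each runs 5′ to 3′ from 250 bases before the RefSeq transcription start to 50 bases from it on (build GRCm38.p6), and capitals mark matches, on either strand, to the motifs named after the sequences. They lie at chr9:57683606-57683905, minus strand (*Cyp1a2*), chr7:26173159-26173458, plus strand (*Cyp2b9*), chr7:25897408-25897707, plus strand (*Cyp2b10*), chr19:39286835-39287134, plus strand (*Cyp2c29*) and chr7:140763569-140763868, plus strand (*Cyp2e1*).
Cyp1a2: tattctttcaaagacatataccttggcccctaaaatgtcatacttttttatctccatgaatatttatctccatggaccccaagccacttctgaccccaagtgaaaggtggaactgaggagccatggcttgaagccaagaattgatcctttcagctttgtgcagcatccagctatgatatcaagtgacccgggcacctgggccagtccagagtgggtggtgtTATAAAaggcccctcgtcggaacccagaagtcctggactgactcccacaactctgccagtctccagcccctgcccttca
Cyp2b9: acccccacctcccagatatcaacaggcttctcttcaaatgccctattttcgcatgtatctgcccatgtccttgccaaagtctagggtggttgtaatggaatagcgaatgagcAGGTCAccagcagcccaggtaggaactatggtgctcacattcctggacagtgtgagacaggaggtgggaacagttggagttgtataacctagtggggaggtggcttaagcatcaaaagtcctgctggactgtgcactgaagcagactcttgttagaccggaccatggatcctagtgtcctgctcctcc
Cyp2b10: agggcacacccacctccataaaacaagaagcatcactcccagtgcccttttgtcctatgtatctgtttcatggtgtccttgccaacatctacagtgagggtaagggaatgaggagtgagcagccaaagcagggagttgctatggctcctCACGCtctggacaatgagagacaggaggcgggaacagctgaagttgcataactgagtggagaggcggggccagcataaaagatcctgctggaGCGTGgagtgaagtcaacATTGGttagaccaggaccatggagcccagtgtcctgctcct
Cyp2c29: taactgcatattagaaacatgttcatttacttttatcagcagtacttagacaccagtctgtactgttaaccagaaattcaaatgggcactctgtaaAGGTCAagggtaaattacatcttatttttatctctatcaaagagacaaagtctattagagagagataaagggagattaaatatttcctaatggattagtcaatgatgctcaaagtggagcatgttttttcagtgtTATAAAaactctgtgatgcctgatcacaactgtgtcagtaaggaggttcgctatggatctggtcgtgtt
Cyp2e1: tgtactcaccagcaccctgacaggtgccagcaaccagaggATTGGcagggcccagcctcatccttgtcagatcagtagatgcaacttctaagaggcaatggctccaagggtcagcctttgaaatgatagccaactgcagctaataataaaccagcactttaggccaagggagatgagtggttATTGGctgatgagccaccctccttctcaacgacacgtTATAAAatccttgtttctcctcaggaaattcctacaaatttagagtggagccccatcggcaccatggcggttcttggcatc
The motifs searched on both strands were the TATA box TATAAA, the nuclear receptor core AGGTCA, a direct repeat of that core spaced by 1 base, the aryl hydrocarbon receptor core GCGTG, the HNF1 core GTTAAT and the CCAAT box. *Cyp1a2* held TATAAA from -29 to -24 relative to the start, *Cyp2c29* from -19 to -14 and *Cyp2e1* from -31 to -26, and 13.6% of 32851 mouse start regions of this length hold it. AGGTCA lay at -154 to -149 in *Cyp2c29* and at -138 to -133 in *Cyp2b9*, and 16.3% of all start regions hold it. *Cyp2b10* held GCGTG at -9 to -5 and, on the minus strand, at -101 to -97, a motif in 32.4% of start regions. Aligned to each other, the *Cyp2b9* and *Cyp2b10* regions had the same base in 230 of 314 columns, 73.2%. The direct repeat, present in 0.0396% of start regions, and the HNF1 core, present in 7.1%, were in none of the windows of the 10 genes. CCAAT was present in 37.4% of all start regions. A match is a run of letters and not a site shown to be bound.

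In wild-type mice, WY lowered a part of the group. *Cyp1a2*, *Cyp2b10* and *Cyp2c29* fell and 0 of 9 measured genes rose, where 10.8% of all probe sets passed the test (5.59% higher and 5.19% lower). WY+HS against control gave 2 genes that fell, *Cyp1a2* and *Cyp2c29*, and 1 that rose on the quantile scale but not under the other scalings, *Cyp2e1*, against 10.6% of all probe sets (5.23% higher and 5.38% lower). The median change of the 9 genes was -0.12 with WY and -0.25 with WY+HS, beside 0 over all probe sets in both. HS alone changed 0 of 9 genes in wild-type mice by limma, 1 at an unadjusted p under 0.05 and 0 by the methods' analysis of variance with Scheffe's test, where 0.0403% of all probe sets passed and 5.35% had an unadjusted p under 0.05. Between the WY+HS and the WY mice of the wild-type genotype 0 of 9 passed in limma, 2 at an unadjusted p under 0.05 and 0 by the methods' test, where 0.427% passed and 8.24% had an unadjusted p under 0.05. The count of 3 with WY became 1 without wild-type control mouse 1, control mouse 3 or WY mouse 9, and 2 without any other of the 6 arrays.

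Within PPARα-null mice none of the 9 probe sets that stood for the genes passed. The set that *Cyp3a11* shares with *Cyp3a16* passed for WY+HS against HS. At a common median, *Cyp2f2* passed for HS and for WY+HS against HS, and *Cyp2c29* for WY+HS against HS (0.88, adjusted p = 0.0405). With WY, 0 of 9 passed in limma, 0 had an unadjusted p under 0.05 and 0 passed the methods' test, where 0.00805% of all probe sets passed. With HS, a comparison in which 7.07% of all probe sets passed (3.18% higher and 3.89% lower), 0 of 9 passed in limma and in the methods' test, and 2 of 9 had an unadjusted p under 0.05, as 18% of all probe sets did. WY+HS against HS had 11.2% of all probe sets past the threshold (6.05% higher and 5.14% lower), and again 0 of 9 in limma and in the methods' test, with 4 of 9 at an unadjusted p under 0.05, as were 21.7% of all probe sets, and a median change of 0.51. WY+HS against control and against WY each gave 0 of 9 by all of these tests, where 0.0161% and 0.0242% of probe sets passed. Between the control mice of the genotypes 0 of 9 differed in limma and in the methods' test and 1 had an unadjusted p under 0.05, where 0.845% of probe sets passed and 10.1% had such a p. The WY change differed between genotypes for 1 of 9 genes, *Cyp1a2*, where 5.13% of probe sets passed (2.19% higher and 2.94% lower). The HS change differed for 0 of 9 in limma and in the methods' test, with 2 at an unadjusted p under 0.05, as were 12.7% of probe sets, and 1.62% of probe sets past the threshold. The shares of all probe sets that were higher or lower moved with the scaling: with no scaling the wild-type WY comparison had 1090 higher and 121 lower instead of 694 and 645, and wild-type WY+HS had 170 and 405 instead of 650 and 668. Wild-type WY+HS against WY had 20 higher and 1411 lower with no scaling, instead of 34 and 19. The null HS comparison had 246 higher and 586 lower at a common median and 66 and 31 with no scaling, instead of 395 and 483. Null WY+HS against HS had 900 and 356 at a common median and 69 and 152 with no scaling, instead of 752 and 639. The genotype difference in the WY change had 40 and 225 with no scaling, instead of 272 and 365. Of all probe sets, the wild-type groups did not overlap in 24.1% for WY against control, 8.42% for HS and 21.5% for WY+HS. For wild-type WY+HS against WY the share was 9.72%. In PPARα-null mice it was 5.3% for WY, 17.6% for HS, 7.24% for WY+HS, 9.02% for WY+HS against WY and 22.8% for WY+HS against HS. Between the control groups it was 13.2%. Groups described here as lying wholly above or below another are to be read beside these shares. No such share was counted for pairs of groups outside these comparisons.

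**Figure D1:**
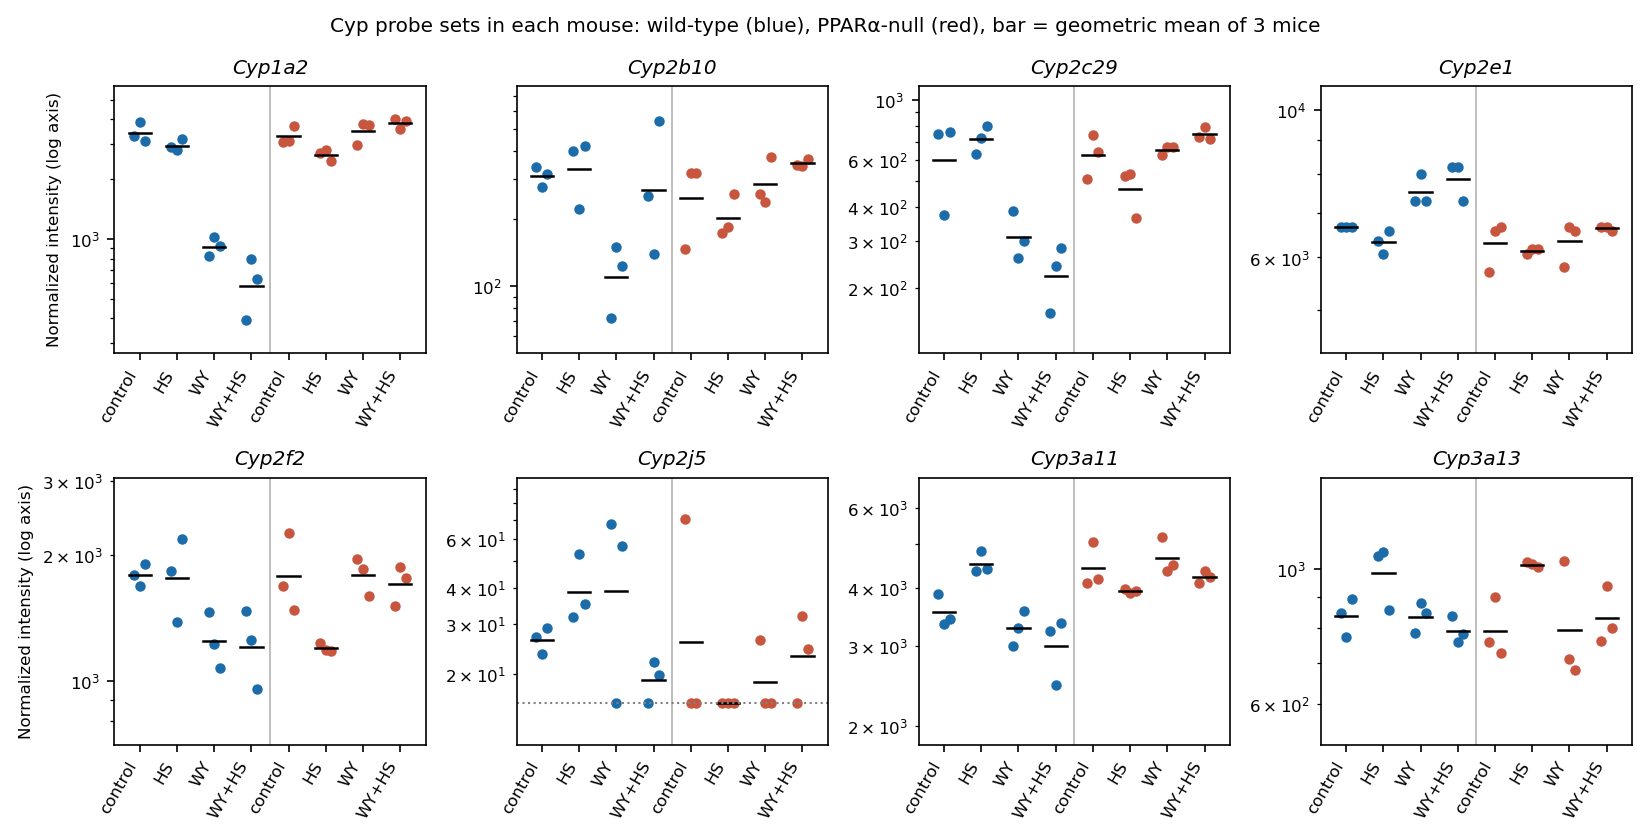
Normalized intensity (log axis) of the 8 genes above the floor on at least 12 arrays, 1 point per mouse and bars at the geometric mean of the 3 mice, for the 8 genotype and treatment groups. *Cyp1a2* lies at 392 to 1023 in the 6 wild-type mice given WY and at 2470 to 4034 in the other 18 mice, and *Cyp2e1* moves with the scaling as described in the text.

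*Cyp1a2*, whose enzyme oxidizes caffeine and arylamines and is a known target of the aryl hydrocarbon receptor, showed the largest fall of the group. In wild-type mice its normalized intensity was 3307, 3882 and 3126 in the control mice, 2918, 2795 and 3178 with HS, 819.6, 1023 and 923 with WY and 392, 794 and 629 with WY+HS. In PPARα-null mice it was 3076, 3113 and 3727 in the control mice, 2707, 2823 and 2469.9 with HS, 2970.2, 3808 and 3755 with WY and 4034, 3575 and 3912 with WY+HS. All 6 wild-type mice given WY lay below all other mice, and the PPARα-null mice given WY lay within or above the range of the wild-type control mice except for 1 mouse at 2970. The mean was 3438 ± 395 (SD, n = 3) in wild-type control mice, 922 ± 102 with WY and 605 ± 202 with WY+HS. *Cyp1a2* thus fell by 1.90 on the log2 scale with WY (SE 0.18, 3.73-fold lower, adjusted p = 1.95e-06, limma) and fell by 2.56 with WY+HS (SE 0.18, 5.9-fold lower, adjusted p = 5.54e-08). In PPARα-null mice the WY change was 0.08 (95% interval -0.30 to 0.47), and the difference between the genotypes was 1.98 (SE 0.26, adjusted p = 0.000135).

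HS by itself left *Cyp1a2* at -0.21 against control in wild-type mice (95% interval -0.60 to 0.18) and at -0.31 in PPARα-null mice (-0.69 to 0.08, adjusted p = 0.44), where the 3 HS mice all lay below the 3 control mice. The wild-type WY+HS mice all lay below the wild-type WY mice, by -0.66 (-1.05 to -0.27, adjusted p = 0.163), which passed without wild-type WY+HS mouse 11 (-0.88, adjusted p = 0.0273). With no scaling the value was -1.33, in a comparison where the median of the 4821 probe sets above the floor on every array was itself -0.69. Ordered by mean log2 intensity, the groups ran from null WY+HS, null WY, wild-type control, null control, wild-type HS and null HS to wild-type WY and wild-type WY+HS, and null HS, wild-type WY and wild-type WY+HS did not overlap with each other, whereas each group further up overlapped with the next. The falls with WY and with WY+HS and the difference between genotypes passed under all 10 other settings and with each array left out.

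*Cyp2c29* encodes a phenobarbital-inducible enzyme of the mouse CYP2C family that also oxidizes arachidonic acid. In wild-type mice its intensity was 745, 374 and 764 in the control mice, 629, 721 and 800.5 with HS, 385, 258 and 299 with WY and 162, 243 and 281 with WY+HS. The PPARα-null values were 507, 743 and 642 in the control mice, 522, 531 and 364 with HS, 622, 666 and 668 with WY and 731, 793 and 718 with WY+HS. The WY and control ranges of wild-type mice overlapped through control mouse 2, at 374, whereas the WY+HS mice all lay below the control mice. *Cyp2c29* fell by 0.95 with WY (SE 0.26, 1.93-fold lower, adjusted p = 0.0233) and fell by 1.42 with WY+HS (SE 0.26, 2.68-fold lower, adjusted p = 0.00108). The first of these calls rested on most of the arrays: it was lost without wild-type control mouse 1 (-0.79) or 3 (-0.77) or WY mouse 8 (-0.81) or 9 (-0.92). It was lost as well with no scaling (-0.50, adjusted p = 0.366), with only the compared arrays (-0.97, adjusted p = 0.259) and by the methods' test. The WY+HS call was kept with each array left out and was lost with only the compared arrays (-1.47, adjusted p = 0.16). In PPARα-null mice WY gave 0.07 (95% interval -0.48 to 0.61), and the genotypes differed by 1.01 (adjusted p = 0.148), a difference that passed without wild-type control mouse 2 (1.35, adjusted p = 0.0155). HS gave 0.26 (-0.29 to 0.80) in wild-type and -0.42 (-0.96 to 0.12) in PPARα-null mice, and all 8 groups overlapped with their neighbours in the order of means, from null WY+HS at the top to wild-type WY+HS at the bottom.

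*Cyp2b10* is the classical target of CAR and of phenobarbital in mouse liver. In wild-type mice its intensity was 341, 275 and 316 in the control mice, 398, 222 and 421 with HS, 72.6, 149.5 and 124 with WY and 253, 139 and 541 with WY+HS. Among PPARα-null mice its intensity was 146, 318 and 319.8 in the control mice, 173, 184 and 257 with HS, 258, 237 and 375 with WY and 347, 344 and 366 with WY+HS. The wild-type WY mice all lay below the wild-type control mice and below every PPARα-null mouse except that null control mouse 13, at 146, fell inside their range, while the WY+HS mice spread from 139 to 540.5. *Cyp2b10* fell by 1.49 with WY (SE 0.42, 2.81-fold lower, adjusted p = 0.0301), and with WY+HS the change was -0.21 (95% interval -1.11 to 0.68, adjusted p = 1). WY+HS against WY was 1.27 (0.38 to 2.17, adjusted p = 0.28). In PPARα-null mice WY gave 0.21 (-0.68 to 1.10) and the genotypes differed by 1.70 (SE 0.60, adjusted p = 0.137). The WY call was lost without wild-type control mouse 1 (-1.42), 2 (-1.57) or 3 (-1.47), and without WY mouse 7 (-1.19) or 9 (-1.57). It was also lost with no scaling (-1.03, adjusted p = 0.225) and with only the compared arrays (-1.51, adjusted p = 0.0682). In the methods' test the gene did not pass the overall analysis of variance, so Scheffe's test was not read. The order of means ran from null WY+HS through wild-type HS, wild-type control, null WY, wild-type WY+HS, null control and null HS to wild-type WY, and only the last pair did not overlap.

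*Cyp2b9*, a close relative of *Cyp2b10* that is expressed more in females, lay at the floor on 23 of 24 arrays and reached 17.0 in null WY+HS mouse 22, so no fold is given. Whether probes of either gene also bind transcripts of the other was not checked, so the split between them is uncertain.

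**Figure D2:**
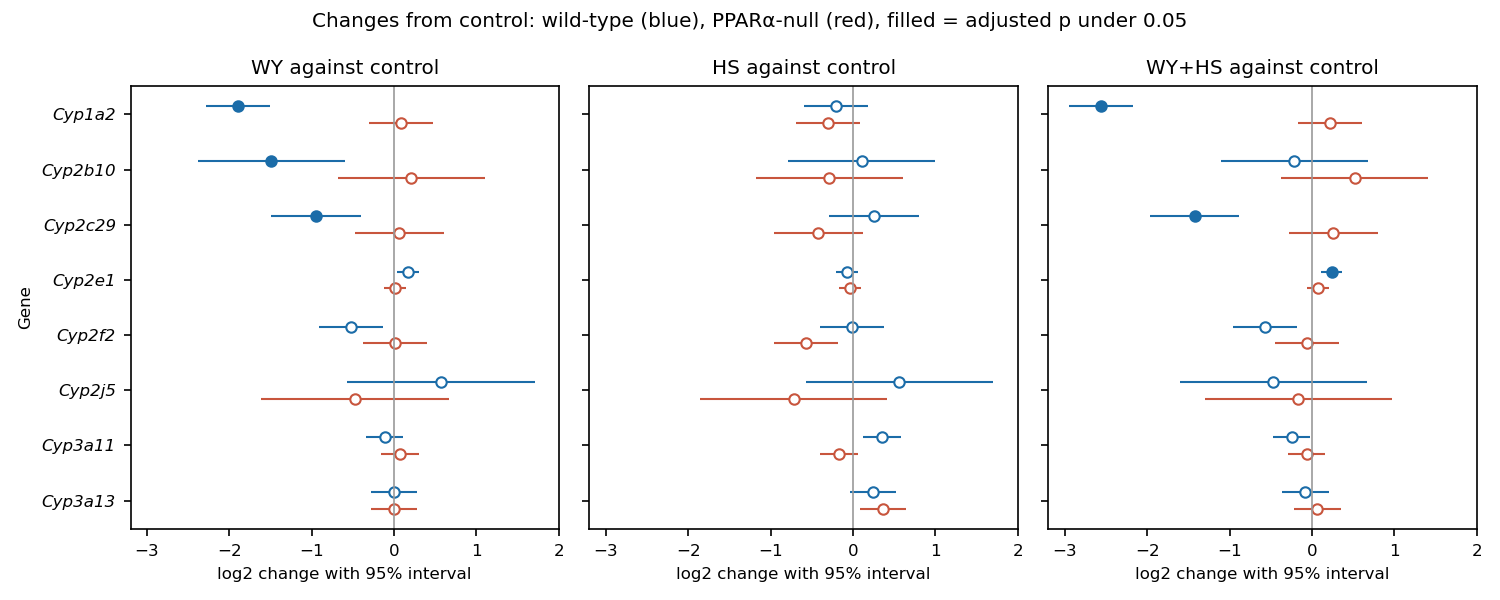
Change in log2 normalized intensity against the control mice of the same genotype with its 95% interval, for WY, HS and WY+HS, in wild-type (blue) and PPARα-null (red) mice; filled symbols passed at an adjusted p under 0.05. The filled symbols are *Cyp1a2* and *Cyp2c29* with WY and WY+HS, *Cyp2b10* with WY and *Cyp2e1* with WY+HS, all in wild-type mice, and the *Cyp2e1* rise on the quantile scale becomes -0.04 at a common median and -0.27 with no scaling.

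*Cyp3a11*, the PXR target that is the main CYP3A enzyme of adult mouse liver, had 1 probe set of its own and 1 shared with *Cyp3a16*, and these differed. On its own probe set the wild-type intensity was 3882, 3350.2 and 3428 in the control mice, 4366, 4814 and 4405 with HS, 2989, 3279 and 3575 with WY and 3235, 2460.1 and 3366 with WY+HS. The PPARα-null intensity was 4115, 5041 and 4201 in the control mice, 3977, 3912 and 3949 with HS, 5176, 4366 and 4491 with WY and 4115, 4366 and 4237 with WY+HS. The wild-type WY and control ranges overlapped, and the wild-type HS mice all lay above the wild-type control mice. WY gave -0.12 in wild-type mice (95% interval -0.34 to 0.11, adjusted p = 0.76), which passed at a common median (-0.50, adjusted p = 0.0152), and HS gave 0.35 (0.12 to 0.58, adjusted p = 0.551). The null control mice all lay above the wild-type control mice, by 0.32 (adjusted p = 0.216). Of the groups ordered by mean, null WY was highest and wild-type WY+HS lowest. Null HS overlapped with neither of its neighbours, null WY+HS above it and wild-type control below it.

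The shared probe set read 4055, 4339 and 4034 in the control mice, 4306, 4636 and 4306 with HS, 2161, 3057 and 3258 with WY and 2918, 2653 and 3385 with WY+HS in wild-type mice. In PPARα-null mice it read 4201, 4579 and 4237 in the control mice, 3503, 3479 and 3293 with HS, 5459, 4733 and 4916 with WY and 5041, 4115 and 5176 with WY+HS. The wild-type WY mice and the WY+HS mice all lay below the wild-type control mice, and the null WY mice all lay above the null control mice. It fell with WY in wild-type mice (-0.57, adjusted p = 0.00539) and with WY+HS (-0.48, adjusted p = 0.0183), rose with WY+HS over HS alone in the null genotype (0.47, adjusted p = 0.021), and its WY change differed between genotypes by 0.79 (adjusted p = 0.0123). The WY fall and the difference between genotypes were kept with each array left out. The rise in the null genotype was at 0.41 to 0.49 and not past the threshold without null HS mouse 16, 17 or 18 or WY+HS mouse 22 or 24. That rise was also lost with no scaling, with only the compared arrays and by the methods' test. The WY+HS fall was lost without wild-type control mouse 2 (-0.45) or WY+HS mouse 10 (-0.47) or 11 (-0.40), and at a common median (-0.57, adjusted p = 0.06). It was lost too with only the compared arrays and by the methods' test. The WY fall and the difference between genotypes did not pass with no scaling (-0.38 and 0.66) or with only the compared arrays. How much *Cyp3a11* and how much *Cyp3a16* added to this signal cannot be read from it.

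*Cyp3a13*, a CYP3A gene expressed in liver and intestine, passed in no comparison. In wild-type mice its intensity was 846, 773 and 895 in the control mice, 1053, 1066 and 856 with HS, 784, 881 and 846 with WY and 838, 759 and 781 with WY+HS. The PPARα-null mice read 759, 899 and 728 in the control mice, 1027, 1019 and 1008 with HS, 1032, 711 and 683 with WY and 761, 940.5 and 799 with WY+HS. The null HS mice all lay above the null control mice, by 0.36 (95% interval 0.08 to 0.64, adjusted p = 0.124), while WY gave -0.00 (-0.28 to 0.28) in wild-type mice. In the order of means, from null HS and wild-type HS at the top to wild-type WY+HS, each group overlapped with the next.

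*Cyp2e1* encodes the ethanol- and acetaminophen-oxidizing enzyme, and its probe set was among the brightest on every array, at rank 5 to 21. At such ranks quantile normalization leaves few distinct values, so its intensity in wild-type mice was 6678, 6678 and 6678 in the control mice, 6353, 6067 and 6582 with HS, 7287, 8016 and 7287 with WY and 8198, 8198 and 7287 with WY+HS. For PPARα-null mice it was 5709, 6582 and 6678 in the control mice, 6067, 6185 and 6185 with HS, 5814, 6678 and 6582 with WY and 6678, 6678 and 6582 with WY+HS. With WY+HS in wild-type mice it stood 0.24 above control on this scale (SE 0.06, adjusted p = 0.0181), but -0.04 at a common array median and -0.27 with no scaling. The call was lost without wild-type control mouse 2 (0.24) or WY+HS mouse 10 (0.21) or 11 (0.21). It was also lost with only the compared arrays (adjusted p = 0.143) and by the methods' test. WY alone gave 0.17 on the quantile scale (adjusted p = 0.101), -0.55 at a common median and -0.01 with no scaling. The deposited means were 7471 ± 484 (SD, n = 3) in wild-type control, 7442 ± 924 with WY and 6198 ± 177 with WY+HS, so the direction for this gene depended on how the arrays were scaled. Ordered by quantile means, wild-type WY+HS and WY came first and null HS last, and only wild-type WY did not overlap with the group after it, wild-type control.

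**Figure D3:**
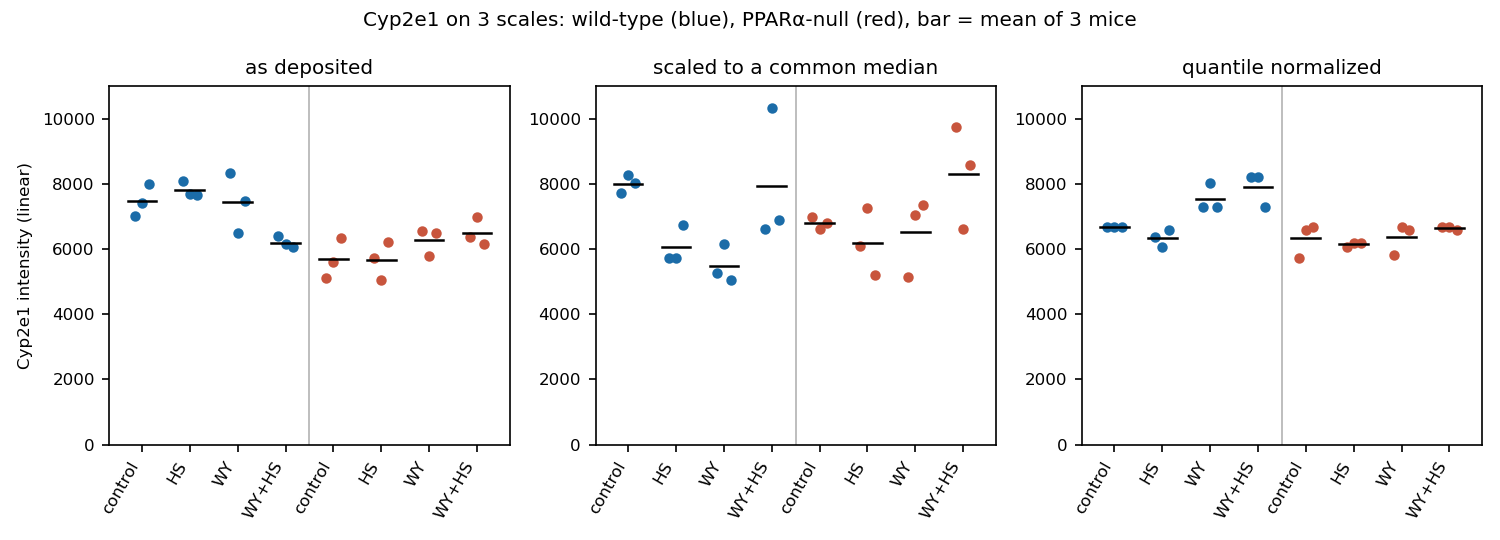
*Cyp2e1* intensity per mouse on the deposited, common median and quantile scales, for the 8 groups. The wild-type WY+HS mice average 6198 on the deposited scale, below the wild-type control mean of 7471, and 7894 on the quantile scale, above the control value of 6678.

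*Cyp2f2*, which bioactivates naphthalene in airway cells as well as liver, had values in wild-type mice of 1787, 1687 and 1899 in the control mice, 1831, 1383 and 2179 with HS, 1465, 1224 and 1075 with WY and 1470.0, 1254 and 956 with WY+HS. In PPARα-null mice they were 1687, 2258 and 1474 in the control mice, 1235, 1183 and 1177 with HS, 1957, 1849.7 and 1595 with WY and 1508, 1871 and 1761 with WY+HS. The wild-type WY mice and WY+HS mice all lay below the wild-type control mice, and the null HS mice all lay below the null control mice. None of these passed: WY gave -0.52 (95% interval -0.91 to -0.13, adjusted p = 0.0884), WY+HS gave -0.57 (-0.96 to -0.18, adjusted p = 0.0612) and null HS gave -0.57 (-0.96 to -0.18, adjusted p = 0.0759). At a common median they did, with -0.65 (adjusted p = 0.017), -0.55 (adjusted p = 0.0465) and -0.82 (adjusted p = 0.00569). With array weights WY (-0.53, adjusted p = 0.0223) and WY+HS (-0.67, adjusted p = 0.0178) passed as well. WY+HS also passed with the filter on dim probe sets (adjusted p = 0.0458). Null WY+HS against HS was 0.51 (adjusted p = 0.0905), and 0.82 (adjusted p = 0.00375) at a common median. Leaving out wild-type WY+HS mouse 10 gave -0.71 (adjusted p = 0.0309) for WY+HS, and leaving out null control mouse 15 gave -0.70 (adjusted p = 0.0428) for null HS. In the order of means the first 5 groups, from null WY to null WY+HS, overlapped in turn, and wild-type WY, wild-type WY+HS and null HS followed below them.

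*Cyp2j5*, an arachidonic acid epoxygenase of kidney and liver, was dim. Its intensity in wild-type mice was 26.9, 23.4 and 29.1 in the control mice, 31.7, 52.7 and 35.3 with HS, 67.3, 15.7 and 56.5 with WY and 15.7, 22.0 and 19.9 with WY+HS. In PPARα-null mice it was 70.4, 15.7 and 15.7 in the control mice, 15.7, 15.7 and 15.7 with HS, 26.2, 15.7 and 15.7 with WY and 15.7, 32.0 and 24.5 with WY+HS. It lay at the floor on 10 of 24 arrays, including all 3 null HS mice, and passed in no comparison, with wild-type WY the highest mean and null HS the lowest, and only wild-type HS standing clear of the group after it, wild-type control.

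**Figure D4:**
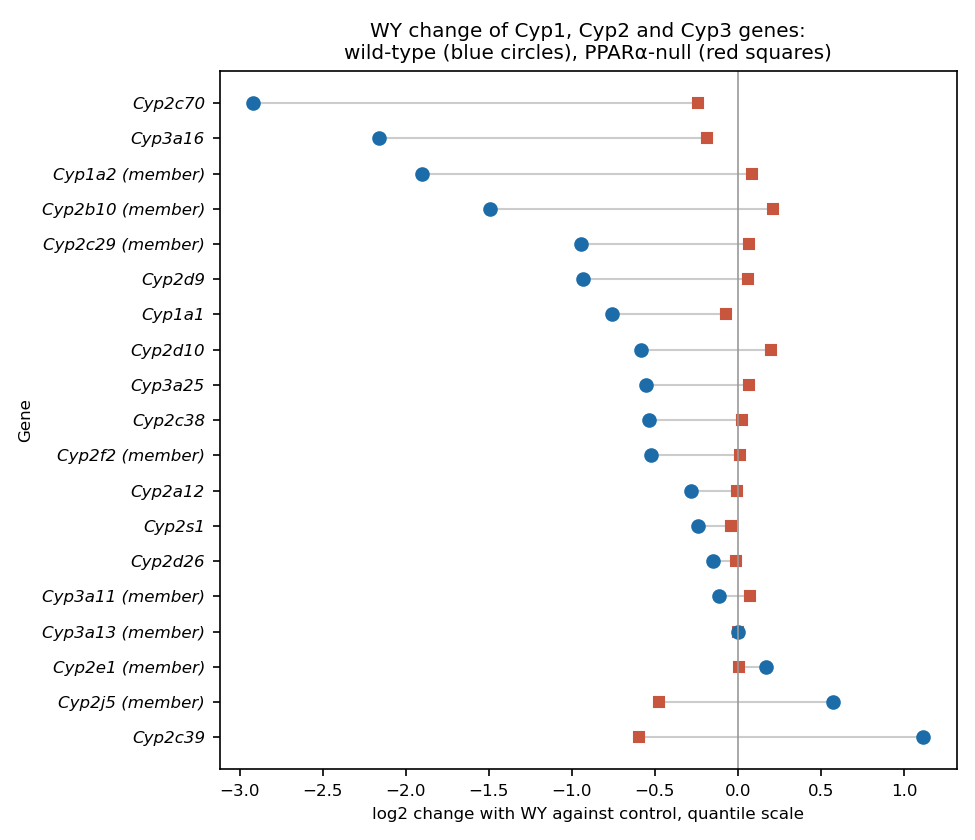
log2 change with WY against control on the quantile scale in wild-type (circles) and PPARα-null (squares) mice, for the measured genes of the group and for the other Cyp1, Cyp2 and Cyp3 genes above the floor. *Cyp1a2* lies at -1.90 in wild-type and 0.08 in PPARα-null mice and *Cyp2c70* at -2.92 and -0.24, while *Cyp2e1* at 0.17 in wild-type mice becomes -0.55 at a common median.

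The array held 15 other genes of these families with a probe set of their own, 4 of which (*Cyp1b1*, *Cyp2b13*, *Cyp2b19* and *Cyp2j6*) lay at the floor on all arrays. In wild-type mice 4 fell with WY and 5 with WY+HS and 0 rose in either, with median changes of -0.28 and -0.53. Of all probe sets, 5.19% and 5.38% were lower in these comparisons. In PPARα-null mice 4 fell with HS, where 3.89% of all probe sets were lower. With WY+HS against HS 4 rose, where 6.05% were higher, and 0 changed with WY. The WY count was 8 at a common median and 2 with no scaling, and ranged from 2 to 4 with single arrays left out.

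*Cyp2c70*, which makes the muricholic acids of mouse bile, had the largest fall of these. Its intensity in wild-type mice was 1526, 1630.0 and 1425 in the control mice, 165, 232 and 215 with WY and 256, 257 and 307 with WY+HS, and in PPARα-null mice 1619.7, 1798 and 1195 in the control mice and 1362, 1383 and 1126 with WY. The wild-type WY and WY+HS mice lay below all others. It fell by 2.92 with WY (SE 0.18, adjusted p = 7.94e-09) and fell by 2.48 with WY+HS (adjusted p = 5.54e-08), and the WY change differed between genotypes by 2.68 (adjusted p = 4.57e-06), all kept under each scaling and with each array left out. *Cyp3a16*, a CYP3A gene of fetal and female liver, read 296, 695 and 654 in wild-type control mice, 87.1, 133 and 129.8 with WY, 669, 377 and 581 in null control mice, 166, 149 and 122 with HS and 818, 614 and 895 with WY+HS. It fell with WY in wild-type mice (-2.16, adjusted p = 0.0011) and with HS in PPARα-null mice (-1.87, adjusted p = 0.00712). In the null genotype it rose with WY+HS over HS alone (2.41, adjusted p = 0.000674). With WY+HS in wild-type mice the change did not pass (-1.11, adjusted p = 0.0841). Whether its probe set also reads other CYP3A transcripts was not checked.

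*Cyp2c38*, whose probe set could also read other CYP2C transcripts, fell with HS in PPARα-null mice, from 947, 1470.0 and 1075 in the control mice to 424, 375 and 384 (-1.54, adjusted p = 1.45e-05), and its HS change differed between genotypes by -1.60 (adjusted p = 0.00107). It also fell with WY+HS in wild-type mice (-0.90, adjusted p = 0.000738) and rose with WY+HS over HS alone in the null genotype (1.63, adjusted p = 5.64e-06). Its WY fall (-0.53, adjusted p = 0.0346) and that of *Cyp2d9*, a male-specific testosterone hydroxylase (-0.93, adjusted p = 0.0259), were each lost without any of wild-type control mice 1, 2 and 3 or WY mice 7 and 9. The 2 probe sets of *Cyp2d10* differed. With HS in PPARα-null mice its brightest set fell (-1.04, adjusted p = 0.0171, lost without null control mouse 14 or HS mouse 16 or 17). The other set did not fall there (0.14, adjusted p = 0.966). With WY in wild-type mice the other set fell (-1.03, adjusted p = 0.000575), and the brightest did not pass (-0.58, adjusted p = 0.186). *Cyp2a12* fell with WY+HS in wild-type mice (-0.53, adjusted p = 0.00118).

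Probe sets annotated to several of these genes at once are kept apart, since their signal cannot be divided. The set shared by *Cyp2c50* and *Cyp2c37*, both CYP2C genes, went from 1772 ± 77.5 (SD, n = 3) in wild-type control mice to 185 ± 52.9 with WY, a fall (-3.30, adjusted p = 3.85e-06). Its WY change in PPARα-null mice was 0.38 and did not pass, and the genotypes differed by 3.68 (adjusted p = 0.000132). The set shared by *Cyp2c69*, *Cyp2c67*, *Cyp2c68* and *Cyp2c40* fell with WY in wild-type mice (-1.28, adjusted p = 1.5e-07), and with HS in PPARα-null mice (-0.51, adjusted p = 0.00436). The set shared by *Cyp2d12* and *Cyp2d9* fell with WY in wild-type mice (-0.63, adjusted p = 0.0104). The set of *Cyp2a5*, the coumarin hydroxylase, and *Cyp2a4* was higher in null than in wild-type control mice (4281 ± 320.3 against 2163 ± 427, 1.00, adjusted p = 0.00656, 0.0886 at a common median).

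Among 23 measured regulators of these genes, 1 fell with WY in wild-type mice, a share near the 5.19% of all probe sets that were lower. This was *Cebpa*, a transcription factor of hepatocyte identity, at 2589.5 ± 140.0 in control mice and 1681 ± 132 with WY (-0.62, adjusted p = 0.00576), and 0 changed with WY+HS. *Nr1i3* (CAR) read 586 ± 53.9 in wild-type control mice and 650.0 ± 27.6 with WY and passed in no comparison, and *Nr1i2* (PXR) was at the floor in both groups. In PPARα-null mice HS lowered 2 of 23, beside 3.89% of all probe sets, *Hnf4a*, a master regulator of hepatocyte genes (-1.76, adjusted p = 0.0119, lost without null control mouse 14 or HS mouse 17), and *Stat5a*, which carries growth hormone signals (-1.67, adjusted p = 0.0306, lost without null control mouse 13, 14 or 15 or HS mouse 16), and 3 of 23 rose with WY+HS against HS, beside 6.05% of all probe sets. In place of *Por*, 15 other genes of electron supply and heme were measured. With WY in wild-type mice 2 of these rose and 3 fell, beside 5.59% of all probe sets higher and 5.19% lower. *Cyb5b*, an outer mitochondrial cytochrome b5, rose (0.59), *Hebp1*, a heme-binding protein, fell (-0.85) and *Urod*, an enzyme of heme synthesis, fell (-0.52), with adjusted p of 0.000125, 0.00533 and 0.00207. In PPARα-null mice 2 of the 15 fell with HS, beside 3.89% of all probe sets, and 4 rose with WY+HS against HS, beside 6.05%.

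Of 27 measured genes of conjugation and other drug metabolism, 4 rose and 5 fell with WY in wild-type mice. With WY+HS 6 rose and 6 fell, and 3 fell with HS in PPARα-null mice. Of all probe sets, 5.59% were higher and 5.19% lower with WY, and 5.23% and 5.38% with WY+HS. With HS in PPARα-null mice 3.89% were lower. *Nnmt*, which methylates nicotinamide, fell with WY (-3.72, adjusted p = 0.0019), and since all 3 WY mice lay at the floor its fall was at least that large. *Sult1a1*, a phenol sulfotransferase, fell with WY (-2.47, adjusted p = 0.014, lost without wild-type control mouse 2 or WY mouse 7) and with WY+HS (-3.83, adjusted p = 0.000376), while the carboxylesterase *Ces1d* rose (1.92, adjusted p = 0.00044). Of 10 measured transporters, 4 rose and 1 fell with WY in wild-type mice, beside the same shares. The carnitine transporter *Slc22a5* rose (2.25, adjusted p = 3.43e-05), as did the efflux pump *Abcg2* (1.65, adjusted p = 1.24e-05), and the bile acid uptake carrier *Slc10a1* fell (-0.92, adjusted p = 0.00829). These 4 and 1 were also the counts with WY+HS.

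Markers of the lobule's zones and of sex bias moved beside the falls of *Cyp1a2*, *Cyp2b10* and *Cyp2c29*, and their part in those falls was not tested. Their counts stand beside 5.19% of all probe sets lower with WY and 5.38% lower with WY+HS in wild-type mice. Of 7 measured central vein markers, 1 fell with WY in wild-type mice, *Lect2* (-0.87, adjusted p = 0.0465, lost with any 1 of the 6 arrays left out), and 2 with WY+HS, *Lect2* (-1.30) and the ornithine aminotransferase *Oat* (-0.90). The summed intensity of the list was 3057 to 3376 in wild-type control mice, 2623 to 2999 with WY and 1794 to 2113 with WY+HS, and its stem cell marker *Lgr5* was at the floor on all arrays. Of 6 portal vein markers, 4 fell with WY and 4 with WY+HS, among them the urea cycle enzymes *Asl* (-1.48 with WY, adjusted p = 0.000205), *Ass1* (-0.84, adjusted p = 0.000214) and *Cps1* (-0.34, adjusted p = 6.78e-05). Their sum was 15338 to 16874 in wild-type control mice and 11803 to 13379 with WY. Of 7 genes higher in male liver, 4 fell with WY and 2 with WY+HS in wild-type mice. *Hsd3b5*, a male-specific steroid dehydrogenase, fell with WY (-5.26, adjusted p = 0.0011), at least by that much, since all 3 mice lay at the floor. *Cyp7b1*, an oxysterol hydroxylase, fell with WY as well (-1.25, adjusted p = 0.00215). Of 6 genes higher in female liver, 3 lay at the floor throughout, and *Cyp3a16* was the 1 that fell with WY.

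Among cell type markers in wild-type mice, WY lowered 3 of 10 for hepatocytes, 0 of 10 for Kupffer cells and macrophages, 2 of 8 for endothelial cells, 1 of 9 for stellate cells and fibroblasts and 1 of 12 for lymphocytes and granulocytes, and raised none of them, where 5.19% of all probe sets were lower and 5.59% higher. The endothelial sum was 809 to 977 in control mice and 507 to 578 with WY. In PPARα-null mice HS raised 1 of 10 Kupffer, 2 of 8 endothelial, 4 of 9 stellate, 4 of 12 lymphocyte and granulocyte and 1 of 9 skeletal muscle markers, where 3.18% of all probe sets were higher, and lowered 1 of 10 hepatocyte markers, where 3.89% were lower. The lymphocyte and granulocyte sum was 821 to 1105 in null control mice and 1477 to 1675 with HS, although *Ptprc*, *Cd3e*, *Cd3g*, *Cd8a* and *Ngp* lay at the floor on all arrays. The skeletal muscle sum was 224.3 to 300.3 in null control mice and 225 to 1126 with HS, and it reached 1204 in 1 wild-type control mouse. None of the 4 bile duct or 2 red blood cell markers passed in the wild-type WY or the null HS comparison, and *Krt7* and *Epcam* lay at the floor throughout. The part of these markers in the Cyp values was not tested.

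Likeness of pattern was measured as Pearson's r of log2 intensity over the 24 arrays, which share the same 8 groups and the same scaling for every gene. *Cyp1a2* was closest to *Ptprf* (r = 0.961, Spearman's rho = 0.581) and *Ifitm3* (r = 0.954, rho = 0.604). *Cyp2c29* was closest to *Gm4788* (r = 0.906) and *Tram1* (r = 0.894), and *Cyp2b10* to *Crisp2* (r = 0.714) and *Ccnd1* (r = 0.695). *Cyp3a11* was closest to another gene of its family, *Cyp3a25* (r = 0.855), and to *Dnajc3* (r = 0.835), *Cyp3a13* to *Lcn2* (r = 0.78) and *Lbp* (r = 0.758), and *Cyp2f2* to *Rhoc* (r = 0.874) and *Slc39a8* (r = 0.838). On the quantile scale *Cyp2e1* was closest to *Tspo* (r = 0.887) and *Ces1d* (r = 0.882), and *Cyp2j5* to *Vamp7* (r = 0.786) and *Map2k4* (r = 0.721). Between genes of the group, *Cyp1a2* and *Cyp2c29* had r = 0.882, *Cyp2c29* and *Cyp3a11* r = 0.747 and *Cyp1a2* and *Cyp3a11* r = 0.703. *Cyp2e1* ran opposite to them on the quantile scale, with r = -0.764 to *Cyp1a2*, -0.754 to *Cyp3a11* and -0.693 to *Cyp2c29*.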

How the data were processed

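Total RNA from whole liver was hybridized to Affymetrix U74Av2 arrays, 1 mouse per array, from livers taken 4 h after HS per the methods. The authors deposited 1 table of probe set intensity values for 24 arrays, 12488 probe sets with 66 of them empty; 24.15% of the values are at or below 0. The labels' processing notes name GeneChip Operating Software 1.4 and Rosetta Resolver 7.1, with summary method and scaling not given in the sources used here. Precision is limited by 3 arrays per group.

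Arrays were quantile normalized, values under 15.7 (the size of the 10th percentile, itself -15.7) were set to it, which applied to 42.86% of values and to 2996 probe sets on all arrays, and log2 values were fitted in limma 3.58.1 (R 4.3.3), with 1 mean per group over all 24 arrays, 16 residual degrees of freedom and 12 comparisons, two-sided. Benjamini-Hochberg adjustment ran over 12422 probe sets of each comparison at 0.05. The brightest probe set of 1 symbol stood for a gene (10833 probe sets have 1 symbol, 396 several and 1193 none in the platform annotation). The self-test on simulated data was run before the real fit. Alternatives were a common array median, no scaling, other floors, an asinh scale, array weights, a trended robust fit, a filter on dim probe sets, a fit to the compared arrays only, the methods' analysis of variance with Scheffe's test, other uses of the Cyp3a11 probe sets, and each array left out.

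The 10 genes and the 18 gene lists were chosen with earlier results of these data known. Named genes were all 10, up to 4 genes past the threshold with the largest change per list and comparison, and the 2 genes most like each of them over 24 arrays where it was above the floor on at least 12. Promoters and gene symbols are from RefSeq (GRCm38.p6), with 10 of 10 genes matched.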

Additional observations from a re-analysis of the deposited data

Results flagged for a closer look

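The change of *Cyp1a2* with WY differed between genotypes, by 1.98 on the log2 scale in the test of the difference itself, with all 3 wild-type WY mice below and the PPARα-null WY mice around their control mice. The probe set shared by *Cyp3a11* and *Cyp3a16* differed by 0.79 in its own test, with the wild-type WY mice below and the PPARα-null WY mice above their control mice. For WY+HS, genes were picked where every wild-type mouse lay on 1 side of its control mean and every PPARα-null mouse on the other. *Cyp1a2* and *Cyp2c29* met this rule, with wild-type mice below and null mice above. The null change exceeded the wild-type change by 2.78 and 1.68. The rule fixed these opposite signs, the share of all probe sets meeting it was not counted, and the differences were not tested. The null changes against control, 0.22 and 0.26, did not pass, and those groups overlapped.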

How the results depend on the processing

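With the other settings, the number of the 9 genes past the threshold with WY in wild-type mice (3) was 5 at a common median and 1 with no scaling, with only the compared arrays or by the methods' test, and 1 to 2 with single arrays left out. For WY+HS in wild-type mice (3) it was 1 with only the compared arrays, and the split of 1 that rose and 2 that fell became 0 and 3 at a common median and 0 and 2 with no scaling. The wild-type WY+HS mice against the WY mice (0) gave 2 with no scaling, where 1431 probe sets passed instead of 53, and 0 to 1 with single arrays left out. In PPARα-null mice HS (0) gave 1 at a common median and 0 to 1 with single arrays left out, and WY+HS against HS (0) gave 2 at a common median, 1 with array weights, 1 with only the compared arrays and 1 with either *Cyp3a11* probe set. The difference between genotypes in the WY change (1) was 2 with array weights and with either *Cyp3a11* probe set, and 1 to 2 with single arrays left out. The rise of *Cyp2e1* with WY+HS in wild-type mice turned to -0.044 at a common median and -0.27 with no scaling. The cause was not tested. With no scaling the median log2 change of the 4821 probe sets above the floor on every array was 0.47 for wild-type WY, 0.44 for wild-type HS and -0.69 for wild-type WY+HS against WY. No paired analysis was possible because mice numbered 1 to 24 were hybridized singly and share no number across groups. Genes near the floor, such as *Cyp2b9*, have only a bound, and bright ones such as *Cyp2e1* have few distinct quantile values.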
